A study of Arabidopsis thaliana with 18 samples.

Results

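Small heat shock proteins are chaperones that bind unfolding proteins and keep them from aggregating. Transcripts of 10 small heat shock protein genes were followed among the 33602 genes counted in Arabidopsis thaliana seedlings of 6 genotypes. The genes were taken by their identifiers, in a list made with earlier results of these data known. They are HSP17.4, HSP17.6B, HSP17.6C, HSP17.8 and HSP18.2 of the cytosolic class I, HSP17.6A and HSP17.6II of the cytosolic class II, the chloroplast HSP21, HSP22 of the endoplasmic reticulum and the mitochondrial HSP23.6.

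All lines are in the Col-0 ecotype, and 3 libraries were made for each genotype. In atchz1ab both AtChz1 genes carry mutations. They are named after a yeast chaperone of the histone variant H2A.Z. The hta9hta11 line carries hta9-1 and hta11-2 in a pair of genes for H2A.Z. The atchz1ab hta9hta11 line combines these mutations. The arp6 line carries arp6-1 in a subunit of the SWR1 complex, which places H2A.Z in nucleosomes, and the atchz1ab arp6 line adds the AtChz1 mutations to it. Col-0 without mutation was the control. All seedlings were 14 days old and grew at 22 °C, and the labels name no heat treatment of any group. The day length was also shared by every group, each night lasting 8 h and each lit period 16 h. Whether a group met another stress is not stated. The labels name whole seedlings, and nothing in them says how many plants or cultures stand behind a library. The p-values below therefore describe how far these libraries spread, and that spread may be technical.

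Library totals were 7163359 to 10744318 counts. HTA9 averaged 42.7 ± 1.68 CPM in hta9hta11 and 39.2 ± 2.73 in atchz1ab hta9hta11, against 93.3 ± 5.85 in Col-0 (SD, n = 3 each). HTA11 averaged 0.832 ± 0.513 and 0.811 ± 0.236 CPM in the same lines, against 19.5 ± 1.64 in Col-0. ARP6 had 0 counts in arp6 and 1 count in atchz1ab arp6, against 714 in Col-0. CPM are counts scaled to library size after TMM normalization. The AtChz1 transcripts were not analysed here. Among markers of the labelled tissue, 4 genes of green tissue summed to 24976 to 36870 CPM per library, while 4 root genes, most of them active in root hairs, summed to 0 to 1.01 CPM, near absent from libraries labelled as seedlings.

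In Arabidopsis, small heat shock protein genes are nearly silent at normal temperature in leaves, are strongly induced by heat, and several are also made in maturing seeds. Heat shock factors switch them on by binding heat shock elements, runs of alternating GAA and TTC units near the gene start. H2A.Z nucleosomes in Arabidopsis are known for their part in the response of such genes to warmth. In Col-0 the level per kilobase of transcript ordered the genes from HSP17.6B at 7.85 ± 0.755 CPM per kb and HSP17.8 at 5.81 ± 1.02 down to HSP21 at 0.445 ± 0.277 and HSP22 at 0.216 ± 0.204 (SD, n = 3). HSP17.6A (4.46 ± 1.78), HSP17.6C (3.37 ± 0.307), HSP17.6II (3.09 ± 0.365) and HSP17.4 (2.76 ± 0.149 CPM per kb) lay between them, with HSP18.2 at 1.36 ± 0.525 and HSP23.6 at 0.608 ± 0.213. Every value rests on few reads. The most abundant gene, HSP17.6B, had 67 to 73 counts in a Col-0 library.

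The 10 genes are short and mostly have 1 exon. On TAIR10.1, HSP17.6C (AT1G53540) lies on chromosome 1 at 19980299 to 19981199 (plus strand) and HSP17.8 (AT1G07400) on chromosome 1 at 2274926 to 2275783 (plus). HSP17.6B (AT2G29500) lies on chromosome 2 at 12633065 to 12634120 (minus), HSP17.4 (AT3G46230) on chromosome 3 at 16984118 to 16984867 (minus) and HSP18.2 (AT5G59720) on chromosome 5 at 24062323 to 24063300 (plus). The class II genes are neighbours on the minus strand of chromosome 5, HSP17.6II (AT5G12020) at 3882231 to 3883111 and HSP17.6A (AT5G12030) at 3883957 to 3884838. HSP21 (AT4G27670, 13818825 to 13819971, minus), HSP22 (AT4G10250, 6370338 to 6371372, plus) and HSP23.6 (AT4G25200, 12916926 to 12918110, plus) lie on chromosome 4, and HSP21 and HSP23.6 have 2 exons. Coding sequences were 85.02% identical between HSP17.4 and HSP17.6C, 86.08% between HSP17.6A and HSP17.6II and 80.17% between HSP17.6B and HSP17.8. Despite this, 0 of the 50-base stretches of any of the 10 transcripts occur elsewhere in the genome. HSP17.4 overlaps AT3G46220 by 60 bases on the opposite strand, and AT3G07365, which has no row in the count table, by 453 bases. Both overlaps are between gene records, and HSP17.4 has 724 exon bases. Since the use of strand in counting is not stated, its counts are uncertain.

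Because the genes are read out through heat shock elements, their upstream sequences were searched for GAANNTTC and TTCNNGAA, the elements of 2 units, and for elements of 3 units, GAANNTTC extended by NNGAA and TTCNNGAA extended by NNTTC, which contain both shorter motifs. Each 2-unit motif is its own reverse complement and the 3-unit motifs are each other's, so both strands were covered. In the 250 bases before the annotated start, 4 of 10 genes held a 2-unit motif, against 16.2% of 27443 genes, and 2 of 10 held a 3-unit motif, against 0.39%. In the 500 bases before the start codon, a window chosen after the first had been seen, 10 of 10 held a 2-unit motif, against 33.9% of genes, and 4 of 10 a 3-unit motif, against 1.2%. TATAAA, the TATA box core, searched on the coding strand alone, stood in 5 of 10, against 46.9%. A match is a run of letters and was not tested for binding.

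**Figure D1:**
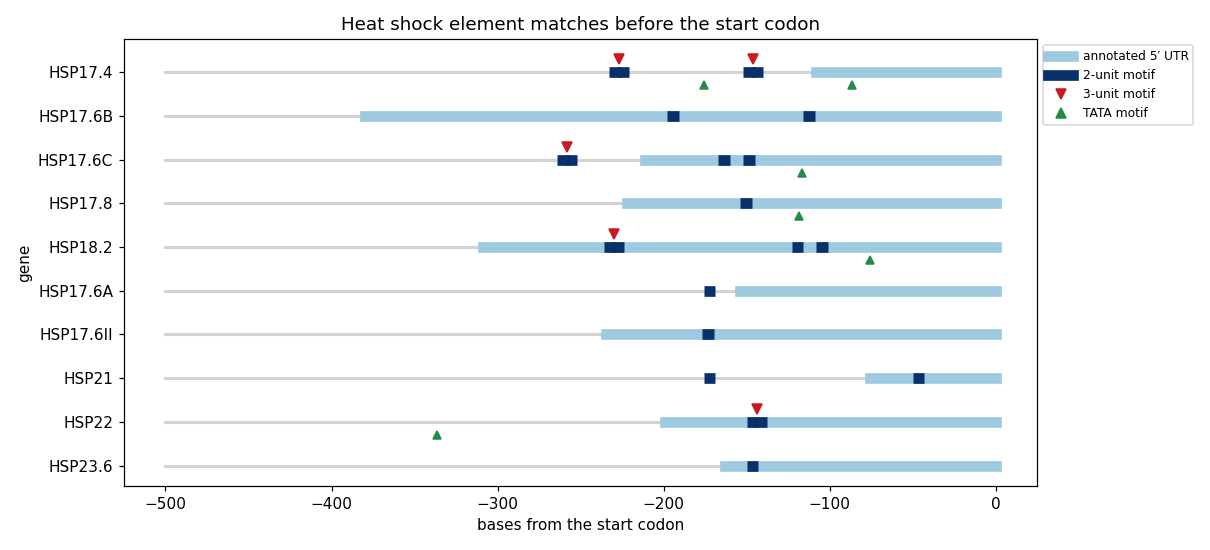
Motif matches in the 500 bases before the start codon of the 10 genes, one row per gene. The x axis gives bases from the start codon, light blue bars the annotated 5′ UTR, dark blue bars 2-unit heat shock motifs, red triangles 3-unit motifs and green triangles TATAAA. All 10 rows hold a 2-unit motif, and HSP17.4, HSP17.6C, HSP18.2 and HSP22 hold a 3-unit motif.

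The 150 bases before the annotated transcript start are shown for HSP17.4 and HSP17.6C, the 2 genes with a 3-unit motif there. For HSP17.4 that start lies inside the span of the gene record. Both stretches are read 5′ to 3′ on the gene's strand of TAIR10.1, with the heat shock motifs in capitals, from chr3:16984842-16984991 (minus) and chr1:19980149-19980298 (plus).
HSP17.4: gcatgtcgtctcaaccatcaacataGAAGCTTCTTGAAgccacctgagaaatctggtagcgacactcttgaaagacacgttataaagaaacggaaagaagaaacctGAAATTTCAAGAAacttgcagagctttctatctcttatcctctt
HSP17.6C: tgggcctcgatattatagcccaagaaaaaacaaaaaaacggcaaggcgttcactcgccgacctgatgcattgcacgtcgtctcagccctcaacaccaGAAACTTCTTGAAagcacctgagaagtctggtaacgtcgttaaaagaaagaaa

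The other 3-unit matches and the class II pair are shown to set the motifs side by side, in stretches of at most 25 bases with the motif in capitals. The HSP18.2 match begins at -236 and the HSP22 match at -150 from the start codon (chr5:24062390-24062414 and chr4:6370381-6370405, plus strand), and both lie inside the annotated 5′ UTR. The class II genes carry the same 2-unit motif at nearly the same place, at -176 in HSP17.6A and -177 in HSP17.6II (chr5:3884847-3884866 and chr5:3883040-3883059, minus strand).
HSP18.2: acaaacGAAACTTCCTGAAatgcca
HSP22: agatatTTCAAGAAACTTCttcatt
HSP17.6A: agacgtTTCTCGAAcgttag
HSP17.6II: agacgtTTCTCGAAcaatac

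Summed over the 10 genes, transcript levels were lower in all 5 mutant lines than in Col-0. The sum was 14.2, 9.96 and 13.3 CPM in the 3 atchz1ab libraries and 13.5, 13.2 and 13.4 CPM in hta9hta11. It was 18.23, 21.03 and 18.55 CPM in atchz1ab hta9hta11, then 10.12, 7.26 and 8.43 CPM in arp6 and 7.97, 8.17 and 9.02 CPM in atchz1ab arp6, against 27.7, 29.8 and 25.2 CPM in Col-0. No mutant library reached the lowest Col-0 library, and the line mutated in both AtChz1 and H2A.Z genes lay above the lines mutated in either alone. As a share of the Col-0 mean, these sums were 45.3%, 48.5%, 69.8%, 31.2% and 30.4% in the order given. HSP17.6B and HSP17.8 make up much of each sum. In whole seedlings, fewer cells making a transcript and less transcript per cell cannot be told apart.

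**Figure D2:**
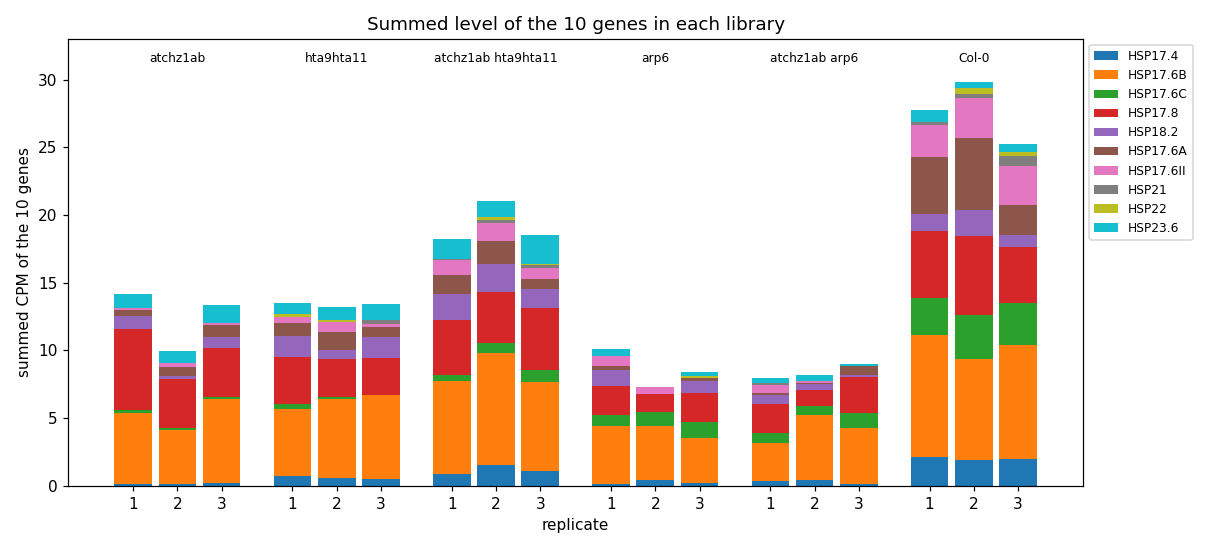
Summed CPM of the 10 genes in each of the 18 libraries (y axis, from 0), stacked by gene, with replicate numbers on the x axis and genotypes above. The 3 Col-0 bars at the right stand at 25.2 to 29.8 CPM, above every mutant bar, and the atchz1ab hta9hta11 bars at 18.23 to 21.03 CPM are the tallest mutant bars.

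Of the 10 genes, 8 passed the filter on low counts and were tested with edgeR, and HSP21 and HSP22 were not. HSP17.6C passed through the Col-0 libraries alone, and HSP17.4 and HSP17.6II mainly through them. HSP23.6 passed mainly through the atchz1ab hta9hta11 libraries. Counts over the 8 genes therefore describe them and carry no test. A gene is called where its p, adjusted by Benjamini-Hochberg over the 18906 genes tested, is under 0.05. The SE given with a log2 fold change is the absolute change over the square root of the edgeR F statistic. At low counts it can fall below counting error, so it is not a standard error of the estimate. In atchz1ab, 5 of 8 were lower and 0 higher than in Col-0 (0 higher at an unadjusted p under 0.05 and 0 with DESeq2), where 5.55% of all genes were called lower and 6.15% higher. In hta9hta11, 6 of 8 were lower, where 5.26% of all genes were lower and 5.98% higher (11.2% either way, and 11.7% in atchz1ab). DESeq2 called 4 lower in hta9hta11, and edgeR called 4 to 5 with single libraries left out. In atchz1ab hta9hta11, 3 of 8 were lower, where 5.32% of all genes were lower and 6.19% higher, 11.5% either way. In arp6, 6 of 8 were lower, but so were 25.5% of all genes, with 24.2% higher and 49.7% either way. In atchz1ab arp6, 7 of 8 were lower, where 23.2% of all genes were lower and 22.7% higher, 45.9% either way. The median log2 fold change of the 8 genes was -1.79, -1.18, -0.52, -1.48 and -1.79 in these 5 comparisons, where that of all genes lay between -0.02 and -0.00025. The 5 comparisons share the Col-0 libraries and are not independent of each other.

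**Figure D3:**
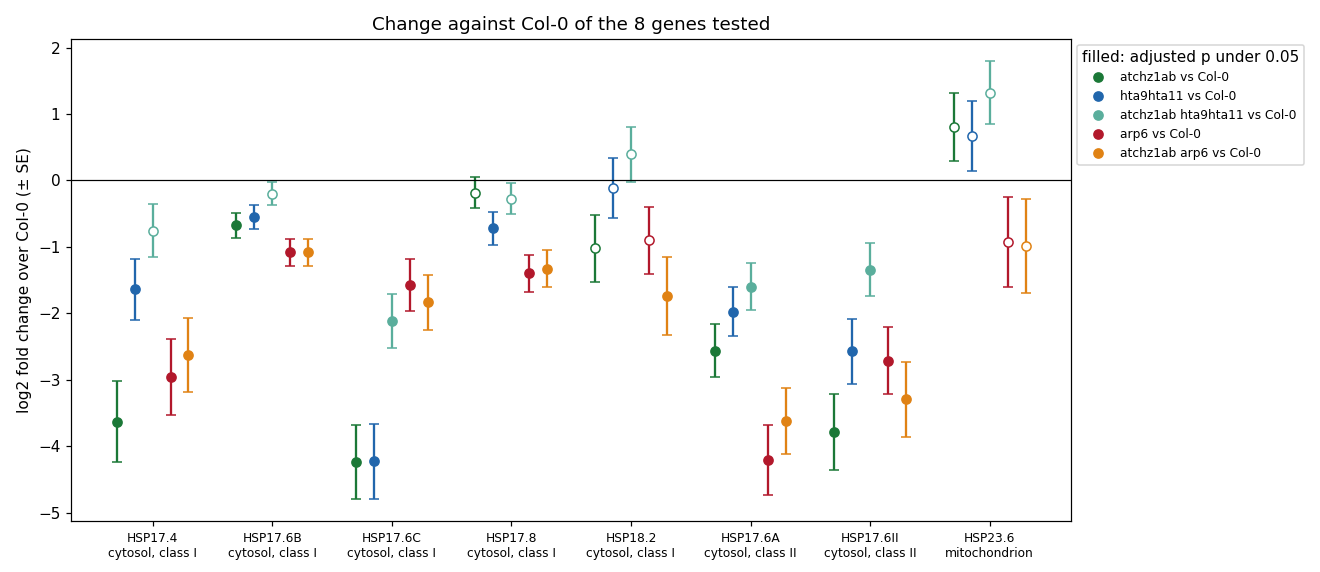
Log2 fold change over Col-0 (y axis, ± SE from the F statistic) of the 8 tested genes in the 5 mutant lines, with filled points for an adjusted p under 0.05. HSP17.6C, HSP17.6A and HSP17.6II carry filled points below 0 in all 5 lines, and HSP23.6 carries none.

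HSP17.6C, a cytosolic class I chaperone, fell in every mutant line. It had 2, 1 and 1 counts in atchz1ab and 3, 1 and 0 counts in hta9hta11. It had 5, 7 and 8 counts in atchz1ab hta9hta11, 8, 7 and 10 in arp6 and 6, 5 and 8 in atchz1ab arp6, against 22, 31 and 25 in Col-0. Col-0 stood clear of all other libraries, 3 lines shared a middle level, and atchz1ab and hta9hta11 stood lowest at 4.85% and 4.84% of the Col-0 mean. In CPM the means were 0.147 ± 0.0619, 0.147 ± 0.16, 0.708 ± 0.229, 1.02 ± 0.173 and 0.846 ± 0.233 in the mutant lines in the order above, against 3.03 ± 0.276 in Col-0 (SD, n = 3 each). The log2 fold change was -4.24 ± 0.56 in atchz1ab (edgeR adjusted p = 3.89e-10) and -4.23 ± 0.56 in hta9hta11 (edgeR adjusted p = 6.18e-10). It was -2.11 ± 0.40 in atchz1ab hta9hta11 (edgeR adjusted p = 2.39e-05), -1.57 ± 0.39 in arp6 (edgeR adjusted p = 0.000352) and -1.84 ± 0.41 in atchz1ab arp6 (edgeR adjusted p = 9.40e-05). Leaving out hta9hta11 replicate 1, which held 3 of that line's 4 counts, moved its value to -5.41. HSP17.6C entered the test through its Col-0 libraries alone, where it was highest. Each of these calls was also made in the fit with no filter on low counts.

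HSP17.4, the class I gene closest to HSP17.6C in sequence, was lowest in atchz1ab. Its counts were 1, 1 and 2 in atchz1ab, 7, 5 and 5 in hta9hta11 and 10, 14 and 10 in atchz1ab hta9hta11. They were 1, 3 and 2 in arp6 and 3, 3 and 1 in atchz1ab arp6, against 17, 18 and 16 in Col-0. Here Col-0, atchz1ab hta9hta11 and hta9hta11 formed 3 steps that did not overlap in CPM, while the other 3 lines overlapped below them. HSP17.4 fell to 0.148 ± 0.0675 CPM in atchz1ab, against 2.00 ± 0.108 CPM in Col-0 (SD, n = 3 each), a log2 fold change of -3.63 ± 0.61 (edgeR adjusted p = 1.04e-06). It also fell in arp6 (-2.96 ± 0.57, edgeR adjusted p = 4.31e-06), in atchz1ab arp6 (-2.63 ± 0.56, edgeR adjusted p = 3.12e-05) and in hta9hta11 (-1.64 ± 0.46, edgeR adjusted p = 0.00731). In atchz1ab hta9hta11 the value of -0.75 ± 0.40 did not pass (edgeR adjusted p = 0.246). HSP17.4 would have failed the filter on low counts without its Col-0 libraries, where it was highest. Its calls were also made in the fit with no such filter.

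HSP17.6B and HSP17.8 are the class I genes with the most reads, and their log2 fold changes were the nearest to 0 among the called ones of class I. HSP17.6B had 48, 37 and 55 counts in atchz1ab, 47, 47 and 58 in hta9hta11 and 75, 75 and 58 in atchz1ab hta9hta11. It had 41, 27 and 28 counts in arp6 and 22, 36 and 30 in atchz1ab arp6, against 73, 71 and 67 in Col-0. It fell to 46.9% of the Col-0 mean in arp6 (log2 fold change -1.08 ± 0.20, edgeR adjusted p = 1.93e-06) and to 47.3% in atchz1ab arp6 (-1.08 ± 0.21, edgeR adjusted p = 3.85e-06). Its fall in atchz1ab (-0.68 ± 0.19, edgeR adjusted p = 0.00608) was lost without atchz1ab replicate 2 (edgeR adjusted p = 0.0937). Its fall in hta9hta11 (-0.55 ± 0.18, edgeR adjusted p = 0.0356) was lost with DESeq2 and without Col-0 replicate 1 or 3 or hta9hta11 replicate 1 or 2, with adjusted p from 0.0275 to 0.179 over all alternatives. In atchz1ab hta9hta11 it was not called (-0.20 ± 0.17, edgeR adjusted p = 0.55).

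HSP17.8 had 55, 33 and 32 counts in atchz1ab, 33, 23 and 26 in hta9hta11 and 45, 34 and 41 in atchz1ab hta9hta11. It had 20, 9 and 18 counts in arp6 and 17, 9 and 19 in atchz1ab arp6, against 40, 56 and 33 in Col-0. The libraries with arp6-1 lay below all others, and those of atchz1ab overlapped Col-0. It fell in arp6 (-1.39 ± 0.28, edgeR adjusted p = 7.83e-06) and atchz1ab arp6 (-1.33 ± 0.28, edgeR adjusted p = 3.08e-05), each against Col-0. In atchz1ab the log2 fold change was -0.18 ± 0.23 (edgeR adjusted p = 0.718) and in atchz1ab hta9hta11 -0.28 ± 0.23 (edgeR adjusted p = 0.531). Its fall in hta9hta11 (-0.72 ± 0.25, edgeR adjusted p = 0.0416) was lost with DESeq2 and without Col-0 replicate 1 or 2 or hta9hta11 replicate 2 or 3, with adjusted p from 0.0311 to 0.238 over all alternatives.

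HSP18.2, also of class I and a gene often used as a marker of heat induction, spread widely between libraries of the same genotype. Its counts were 9, 2 and 7 in atchz1ab, 15, 5 and 14 in hta9hta11 and 21, 19 and 12 in atchz1ab hta9hta11. They were 11, 0 and 7 in arp6 and 5, 3 and 1 in atchz1ab arp6, against 10, 18 and 7 in Col-0. No neighbours in the order of genotype means were free of overlap, from 1.78 ± 0.386 CPM in atchz1ab hta9hta11 to 0.391 ± 0.247 CPM in atchz1ab arp6, with Col-0 at 1.33 ± 0.514 CPM (SD, n = 3). HSP18.2 fell in atchz1ab arp6 against Col-0 (-1.74 ± 0.59, edgeR adjusted p = 0.0108), a call lost without Col-0 replicate 2 (edgeR adjusted p = 0.103) or atchz1ab arp6 replicate 3 (0.0732), with adjusted p from 0.00701 to 0.103 over all alternatives. In the other lines it did not pass, with -1.02 ± 0.50 in atchz1ab (edgeR adjusted p = 0.206) and -0.90 ± 0.51 in arp6 (edgeR adjusted p = 0.133), the last moving to -1.54 and a call without arp6 replicate 1 (edgeR adjusted p = 0.0457, range 0.0457 to 0.514 over all alternatives).

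The class II genes HSP17.6A and HSP17.6II, whose products form complexes apart from those of class I, fell in all 5 lines. HSP17.6A had 4, 6 and 8 counts in atchz1ab, 9, 11 and 7 in hta9hta11 and 16, 15 and 7 in atchz1ab hta9hta11. It had 3, 0 and 2 counts in arp6 and 1, 1 and 5 in atchz1ab arp6, against 34, 51 and 18 in Col-0. The Col-0 libraries lay above all others although they spread widely, and the lines with arp6-1 were lowest. The level was 4.69% of the Col-0 mean in arp6 (log2 fold change -4.21 ± 0.52, edgeR adjusted p = 6.92e-12) and 8.08% in atchz1ab arp6 (-3.62 ± 0.49, edgeR adjusted p = 3.07e-10). It was -2.56 ± 0.40 on the log2 scale in atchz1ab (edgeR adjusted p = 1.55e-07), -1.97 ± 0.37 in hta9hta11 (edgeR adjusted p = 1.86e-05) and -1.60 ± 0.35 in atchz1ab hta9hta11 (edgeR adjusted p = 0.000281), each against Col-0. Without atchz1ab arp6 replicate 3, which held 5 of the line's 7 counts, its value there moved to -4.79.

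HSP17.6II had 1, 3 and 1 counts in atchz1ab, 4, 6 and 2 in hta9hta11 and 12, 12 and 7 in atchz1ab hta9hta11. It had 7, 3 and 0 counts in arp6 and 5, 1 and 0 in atchz1ab arp6, against 19, 28 and 23 in Col-0. Col-0 and then atchz1ab hta9hta11 stood clear of the rest, and the other 4 lines overlapped. It was lowest in atchz1ab at 6.75% of the Col-0 mean (-3.79 ± 0.58, edgeR adjusted p = 5.43e-08), and also fell in atchz1ab arp6 (-3.29 ± 0.56, edgeR adjusted p = 3.30e-07), arp6 (-2.71 ± 0.50, edgeR adjusted p = 1.99e-06) and hta9hta11 (-2.57 ± 0.48, edgeR adjusted p = 1.68e-05). Single libraries moved these values, to -4.45 without atchz1ab replicate 2, -5.06 without atchz1ab arp6 replicate 1 and -3.69 without arp6 replicate 1, all still called. Its fall in atchz1ab hta9hta11 (-1.34 ± 0.40, edgeR adjusted p = 0.0133) was lost with DESeq2, without Col-0 replicate 2 or 3 and without atchz1ab hta9hta11 replicate 1 or 3, with adjusted p from 0.00327 to 0.0879 over all alternatives. HSP17.6II would have failed the filter on low counts without its Col-0 libraries, where it was highest. Its calls were also made in the fit with no such filter.

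The genes for organelles had the lowest levels per kilobase in Col-0. HSP23.6, which acts in mitochondria, had 10, 8 and 12 counts in atchz1ab, 8, 8 and 11 in hta9hta11 and 16, 11 and 19 in atchz1ab hta9hta11. It had 5, 0 and 3 counts in arp6 and 3, 3 and 1 in atchz1ab arp6, against 7, 4 and 5 in Col-0. By their means, the 3 mutant lines without arp6-1 lay above Col-0 and both lines with it below. The libraries of hta9hta11 and of arp6 overlapped those of Col-0, and no comparison with Col-0 passed. The closest was atchz1ab hta9hta11, at 251% of the Col-0 mean (log2 fold change 1.32 ± 0.48, edgeR adjusted p = 0.0545), which passed in a fit of the compared groups alone (edgeR adjusted p = 0.0394, range 0.0394 to 0.245 over all alternatives). HSP23.6 entered the test mainly through the atchz1ab hta9hta11 libraries, where it was highest, and would have failed the filter without them. In the fit of the compared groups it entered through them alone. The values were 0.81 ± 0.52 in atchz1ab (edgeR adjusted p = 0.372), 0.67 ± 0.53 in hta9hta11 (0.508), -0.93 ± 0.68 in arp6 (0.264) and -0.98 ± 0.71 in atchz1ab arp6 (0.26).

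HSP21, which protects plastid proteins, had 0 counts over the 3 libraries of atchz1ab and of arp6, and 11 counts in Col-0 (2, 3 and 6). Set against a floor of 3 counts for the 3 libraries together, it was at least 3.89-fold lower in atchz1ab and at least 3.53-fold lower in arp6 than in Col-0. These folds take the Col-0 counts as exact, and with their counting error the limits would be lower. With 1 count in atchz1ab arp6, the ratio of Col-0 over the mutant was 9.70 (95% counting interval 1.41 to 417.6), and with 3 counts in hta9hta11 it was 3.86 (1.02 to 21.5). In atchz1ab hta9hta11 it had 1, 2 and 2 counts. HSP22, in the secretory pathway, had 0 counts in atchz1ab and in atchz1ab arp6, against 6 in Col-0 (0, 4 and 2). With the Col-0 counts again taken as exact, it was at least 2.12-fold and at least 1.76-fold lower. It had 3 counts in hta9hta11, 3 in atchz1ab hta9hta11 and 1 in arp6, and the intervals of these ratios to Col-0 all hold 1. In a fit without the filter, edgeR called HSP21 lower than Col-0 in atchz1ab (adjusted p = 0.0345) and arp6 (adjusted p = 0.0118), and HSP22 in no line.

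**Figure D4:**
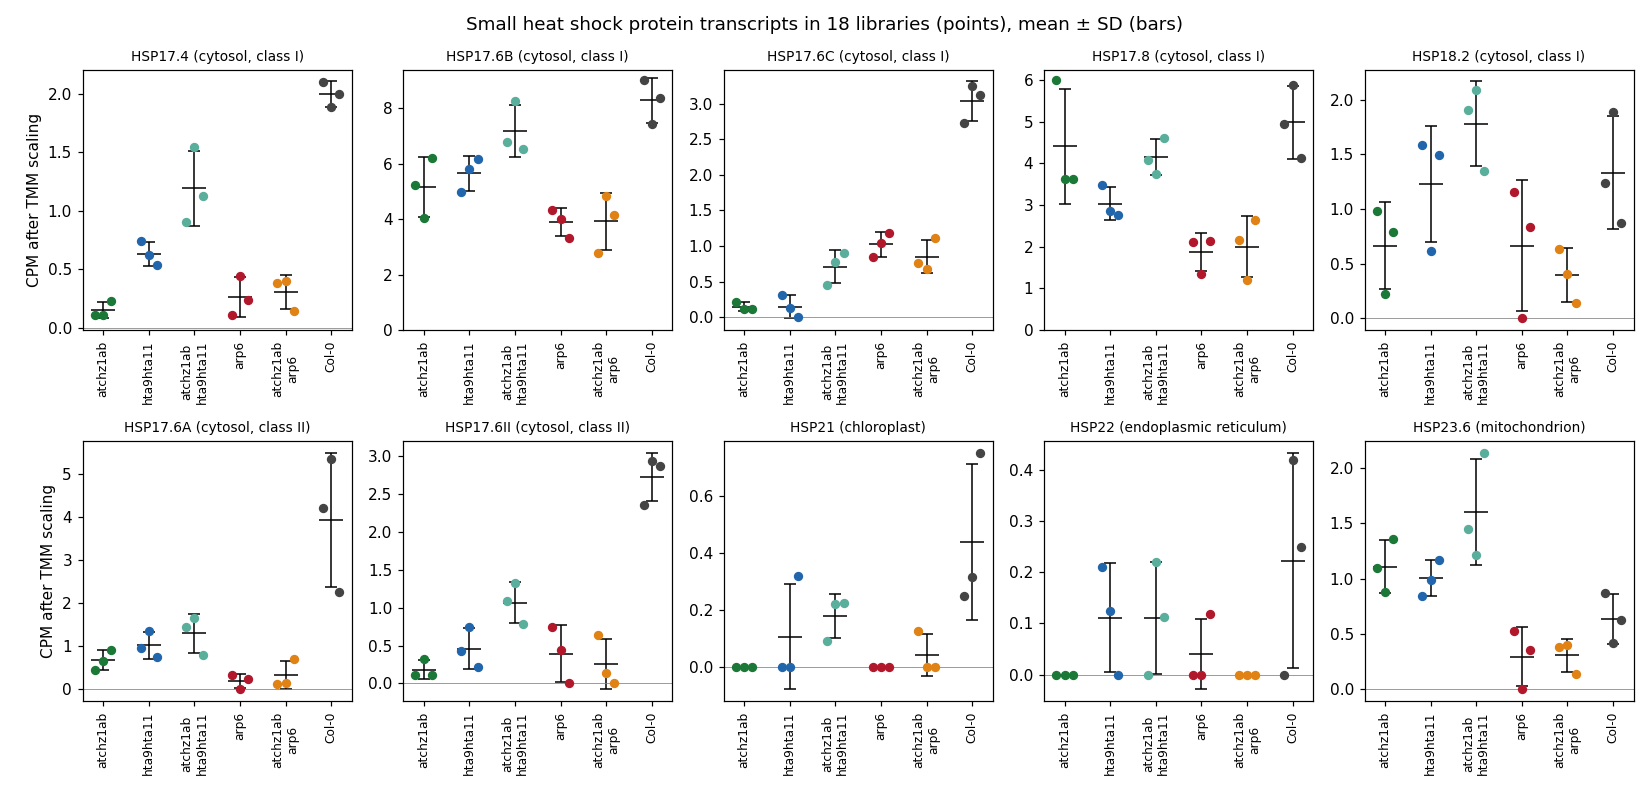
CPM after TMM scaling (y axes, scaled per gene) of each of the 10 genes in every library (points) with mean ± SD (bars, n = 3) for the 5 mutant lines and Col-0 at the right of each panel. Col-0 points stand above all mutant points for HSP17.4, HSP17.6A, HSP17.6C and HSP17.6II, and below the atchz1ab hta9hta11 points for HSP23.6.

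The change with the AtChz1 mutations was then compared across 3 backgrounds. In Col-0 background 5 of the genes fell with the AtChz1 mutations, as above. In hta9hta11 background 0 of 8 were called with edgeR or DESeq2, and 2 were higher at an unadjusted p under 0.05, where 0.793% of all genes were called higher and 0.952% lower, 1.75% either way. Those were HSP17.6C (0.708 ± 0.229 CPM in atchz1ab hta9hta11, against 0.147 ± 0.16 in hta9hta11, log2 fold change 2.12 ± 0.74, edgeR adjusted p = 0.157) and HSP17.6II (1.07 ± 0.268 against 0.459 ± 0.267 CPM, 1.23 ± 0.56, edgeR adjusted p = 0.389). In arp6 background 0 of 8 were called with edgeR or DESeq2 and 0 at an unadjusted p under 0.05, where 6.63% of all genes were called higher and 8.01% lower, 14.6% either way. Values there ran from -0.84 ± 0.67 for HSP18.2 to 0.58 ± 0.91 for HSP17.6A.

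The difference between backgrounds was tested itself, as an interaction. Each interaction holds the same Col-0 and atchz1ab libraries as the comparison in Col-0 background, so it is not independent of the falls there. The change with the AtChz1 mutations was higher in hta9hta11 background than in Col-0 background for 5 of 8 genes, where 3.41% of all genes were called higher and 3.74% lower, 7.15% either way. The interaction was 6.36 ± 0.95 for HSP17.6C (edgeR adjusted p = 5.84e-08), 5.02 ± 0.83 for HSP17.6II (edgeR adjusted p = 1.11e-06) and 4.52 ± 0.81 for HSP17.4 (edgeR adjusted p = 8.15e-06). It was 2.94 ± 0.61 for HSP17.6A (edgeR adjusted p = 0.000189) and 1.02 ± 0.26 for HSP17.6B (edgeR adjusted p = 0.00422), all on the log2 scale. For HSP17.6C it moved to 7.54 without hta9hta11 replicate 1, and for HSP17.6II to 5.68 without atchz1ab replicate 2. HSP17.6C had 4 counts over the hta9hta11 libraries, too few for a further fall as large as that in Col-0 background to be seen. HSP17.8, HSP18.2 and HSP23.6 were not called. HSP17.6C entered the test through its Col-0 libraries alone, and HSP17.4 and HSP17.6II would not have entered without theirs, but the 5 calls were also made in the fit with no filter on low counts.

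With arp6 the interaction was called for 3 of 8 genes, all higher, where 6.38% of all genes were called higher and 7.35% lower, 13.7% either way. It was 3.97 ± 0.83 for HSP17.6C (edgeR adjusted p = 0.000114), 3.96 ± 1.16 for HSP17.4 (edgeR adjusted p = 0.00958) and 3.14 ± 1.06 for HSP17.6A (edgeR adjusted p = 0.0297). The HSP17.4 call was lost without atchz1ab arp6 replicate 1 (edgeR adjusted p = 0.0537) or 2 (0.0552), with adjusted p from 0.00686 to 0.0552 over all alternatives. The HSP17.6A call was lost without Col-0 replicate 2, atchz1ab replicate 1, arp6 replicate 2 or atchz1ab arp6 replicate 3, and the last moved it to 1.98 (edgeR adjusted p = 0.51, range 0.0178 to 0.51 over all alternatives). HSP17.6II stood at 3.20 ± 1.17 and was not called (edgeR adjusted p = 0.0523, range 0.0193 to 0.789 over all alternatives). It was called with DESeq2, with library totals and without atchz1ab replicate 2, arp6 replicate 1 or atchz1ab arp6 replicate 2 or 3, while leaving out atchz1ab arp6 replicate 1 moved it to 1.44. The 3 arp6 libraries together held 6 counts of HSP17.4, 5 of HSP17.6A and 10 of HSP17.6II. From so few counts, a further fall as large as that in Col-0 background could hardly have been seen. For these genes the interaction cannot tell an absent fall from a level already near 0.

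**Figure D5:**
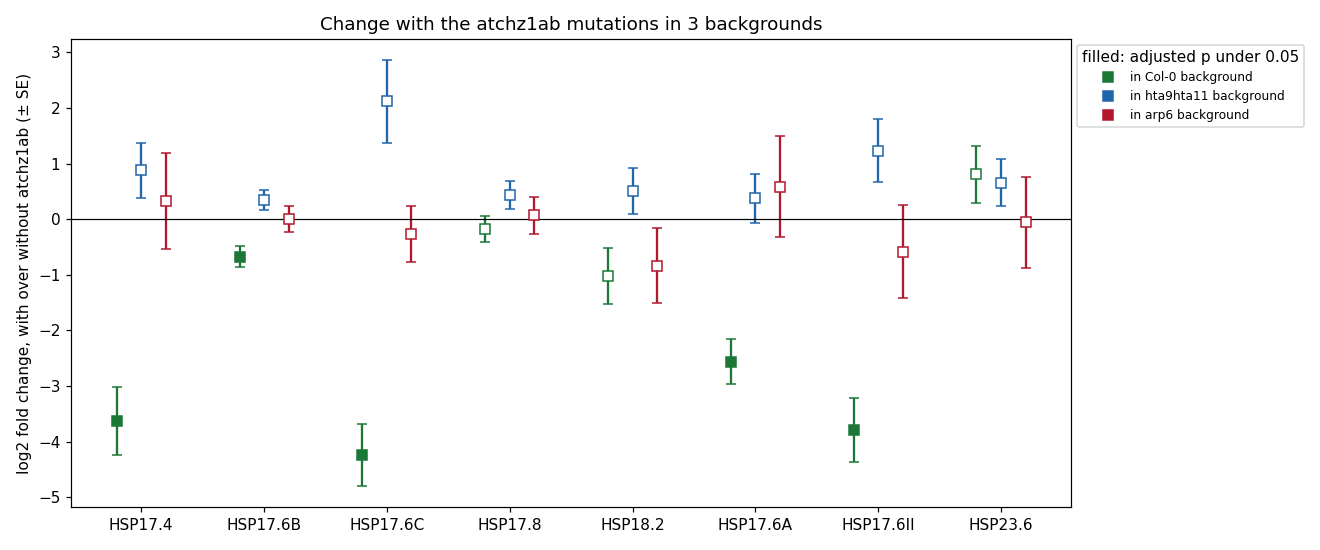
Log2 fold change with over without the atchz1ab mutations (y axis, ± SE from the F statistic) for the 8 tested genes in Col-0, hta9hta11 and arp6 background, with filled squares for an adjusted p under 0.05. Filled squares appear in Col-0 background alone, at -4.24 to -0.68 for 5 genes.

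Adding the H2A.Z mutations to atchz1ab gave higher levels of part of the family. Of 8 genes, 4 were higher in atchz1ab hta9hta11 than in atchz1ab and 0 lower (0 lower at an unadjusted p under 0.05 and 0 with DESeq2), where 5.46% of all genes were called higher and 5.16% lower, 10.6% either way. HSP17.4 averaged 1.19 ± 0.322 CPM in atchz1ab hta9hta11, against 0.148 ± 0.0675 in atchz1ab (SD, n = 3 each, log2 fold change 2.88 ± 0.67, edgeR adjusted p = 0.000879). HSP17.6II averaged 1.07 ± 0.268 against 0.184 ± 0.125 CPM (2.45 ± 0.68, edgeR adjusted p = 0.00792), HSP18.2 1.78 ± 0.386 against 0.665 ± 0.398 CPM (1.41 ± 0.47, edgeR adjusted p = 0.0343) and HSP17.6C 0.708 ± 0.229 against 0.147 ± 0.0619 CPM (2.13 ± 0.74, edgeR adjusted p = 0.0468). The HSP17.4 call held in every alternative in which the gene was tested. The HSP17.6II call was lost without atchz1ab replicate 1 or 3 (edgeR adjusted p = 0.0528 and 0.0502, range 0.00777 to 0.0528 over all alternatives), and its value moved to 3.11 without atchz1ab replicate 2. The HSP18.2 call was lost with DESeq2 and without atchz1ab replicate 2 or 3 or atchz1ab hta9hta11 replicate 1 or 2 (adjusted p 0.0167 to 0.254 over all alternatives). The HSP17.6C call was lost with DESeq2, without the filter, under a replicate block and without any of atchz1ab replicates 1, 2 and 3 or atchz1ab hta9hta11 replicates 2 and 3 (adjusted p 0.0385 to 0.156 over all alternatives).

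The comparisons of arp6 with atchz1ab, arp6 with hta9hta11 and hta9hta11 with atchz1ab were added after these values had been seen. In arp6 against atchz1ab, HSP17.6C was higher (1.02 ± 0.173 against 0.147 ± 0.0619 CPM, log2 fold change 2.67 ± 0.70, edgeR adjusted p = 0.000741), while HSP17.8 was lower (1.86 ± 0.456 against 4.41 ± 1.38 CPM, -1.21 ± 0.28, edgeR adjusted p = 0.000126). HSP23.6 was also lower (0.294 ± 0.269 against 1.11 ± 0.241 CPM, -1.73 ± 0.60, edgeR adjusted p = 0.0117). That call did not hold without arp6 replicate 2 or without atchz1ab replicate 3 (edgeR adjusted p = 0.0797 and 0.0508, range 0.00641 to 0.0797 over all alternatives). So 1 of 8 was higher and 2 lower, where 24.6% of all genes were called higher and 25% lower, 49.6% either way. Scaling by library totals, which moves the median of all genes in this comparison to -0.13, called 5 of 8, adding HSP17.6A and HSP17.6B as lower. These were also called without atchz1ab replicate 1 (HSP17.6A, edgeR adjusted p = 0.0416) or atchz1ab replicate 2 (HSP17.6B, edgeR adjusted p = 0.0419).

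In arp6 against hta9hta11, HSP17.6C was again higher (1.02 ± 0.173 against 0.147 ± 0.16 CPM, 2.66 ± 0.70, edgeR adjusted p = 0.000924) and HSP17.6A lower (0.185 ± 0.165 against 1.02 ± 0.313 CPM, -2.23 ± 0.68, edgeR adjusted p = 0.00447). HSP17.6B (-0.54 ± 0.21, edgeR adjusted p = 0.0325) and HSP23.6 (-1.59 ± 0.61, edgeR adjusted p = 0.0269) were lower too, but both were lost in several alternatives, with adjusted p up to 0.145 and 0.141. HSP17.6B was lost with DESeq2 and without hta9hta11 replicate 2 or 3 or arp6 replicate 2 or 3, and HSP23.6 without hta9hta11 replicate 3 or arp6 replicate 2 or 3. In all, 1 was higher and 3 lower, where 22.1% of all genes were called higher and 22.6% lower, 44.7% either way. HSP17.8 (-0.67 ± 0.30, edgeR adjusted p = 0.0578) was called lower with library totals (edgeR adjusted p = 0.0244). HSP17.6C moved to 3.84 without hta9hta11 replicate 1. HSP23.6 moved to -2.27 against hta9hta11 and -2.41 against atchz1ab without arp6 replicate 1.

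In hta9hta11 against atchz1ab 0 of 8 were called with edgeR or DESeq2, with HSP17.4 higher and HSP17.8 lower at an unadjusted p under 0.05, where 5.53% of all genes were called higher and 5.17% lower, 10.7% either way. HSP17.4 came nearest, at 0.63 ± 0.104 CPM in hta9hta11 and 0.148 ± 0.0675 CPM in atchz1ab (log2 fold change 2.00 ± 0.77, edgeR adjusted p = 0.0802). In atchz1ab arp6 against atchz1ab, HSP17.6C was higher (2.40 ± 0.74, edgeR adjusted p = 0.00487) and HSP17.8 lower (-1.14 ± 0.28, edgeR adjusted p = 0.000416), as was HSP23.6 (-1.79 ± 0.62, edgeR adjusted p = 0.0134), where 22.2% of all genes were called higher and 22.6% lower, 44.8% either way. The HSP23.6 call was lost without atchz1ab replicate 3 or atchz1ab arp6 replicate 3 (edgeR adjusted p = 0.0545 and 0.0732, range 0.00973 to 0.0732 over all alternatives).

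The sums above hold for the 10 genes alone. A further 9 small heat shock protein genes summed to 130.6 to 148.2 CPM per library in atchz1ab, 117.2 to 130.5 in hta9hta11 and 122.975 to 129.7 in atchz1ab hta9hta11. They summed to 86.3 to 92.4 CPM in arp6 and 99.8 to 102.0 in atchz1ab arp6, against 105.1 to 110.9 CPM in Col-0. So the first 3 lines lay above Col-0 and both lines with arp6-1 below it. Of these 9 genes, 8 were tested. In atchz1ab 2 were higher than in Col-0 and 0 lower (0 lower at an unadjusted p under 0.05 and 0 with DESeq2). These were HSP23.5, the mitochondrial relative of HSP23.6, which averaged a log2 fold change of 0.93 ± 0.11 (edgeR adjusted p = 1.47e-11), and HSP18.5 at 0.41 ± 0.06 (edgeR adjusted p = 3.18e-09). In hta9hta11 3 were higher and 1 lower, HSP17.4-CIII of class III at -0.78 ± 0.18 (edgeR adjusted p = 0.00089). In atchz1ab hta9hta11 2 were higher and 0 lower (0 lower at an unadjusted p under 0.05 and 0 with DESeq2). Of all genes, 6.15%, 5.98% and 6.19% were called higher in these lines, in that order, and 5.55%, 5.26% and 5.32% lower. In arp6 2 were higher and 4 lower, where 24.2% of all genes were called higher and 25.5% lower. In atchz1ab arp6 2 were higher and 2 lower, near the 22.7% and 23.2% of all genes. HSP14.7 averaged 5.85 ± 0.989 CPM in arp6, against 0.223 ± 0.211 CPM in Col-0 (SD, n = 3 each, log2 fold change 4.58 ± 0.44, edgeR adjusted p = 1.56e-17).

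Heat shock factors regulate the family. Of 23 listed heat shock factors and their partners, 19 were tested. In atchz1ab 0 were called with edgeR or DESeq2, with 4 higher and 1 lower at an unadjusted p under 0.05. In hta9hta11 1 was lower, HSFA4A at -0.35 ± 0.11 (edgeR adjusted p = 0.0148), and DESeq2 called 0. In atchz1ab hta9hta11 1 was higher and 2 lower, against 0 and 1 with DESeq2. The shares of all genes called in these lines, in that order, were 6.15%, 5.98% and 6.19% higher and 5.55%, 5.26% and 5.32% lower. In arp6 10 were lower and 0 higher (1 higher at an unadjusted p under 0.05 and 0 with DESeq2), where 25.5% of all genes were called lower and 24.2% higher. In atchz1ab arp6 9 were lower and 1 higher, where 23.2% of all genes were called lower and 22.7% higher. DESeq2 called 8 lower in arp6, and 7 lower and 1 higher in atchz1ab arp6. DREB2A, a drought and heat regulator upstream of HSFA3, fell in arp6 (-1.14 ± 0.12, edgeR adjusted p = 1.40e-15), as did HSFA6B (-2.27 ± 0.47, edgeR adjusted p = 2.14e-05). HSFA9, the factor of maturing seeds, had 0 or 1 counts in every genotype. HSFB1 was listed at 0 counts in all 18 libraries.

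Among 23 other chaperones and heat targets, of which 22 were tested, 4 were higher and 3 lower in atchz1ab, 1 higher and 2 lower in hta9hta11, and 4 higher and 1 lower in atchz1ab hta9hta11, each against Col-0. In the same order, 6.15%, 5.98% and 6.19% of all genes were called higher and 5.55%, 5.26% and 5.32% lower. In arp6 3 were higher and 13 lower, beside 24.2% and 25.5% of all genes. In atchz1ab arp6 5 were higher and 9 lower, beside 22.7% and 23.2% of all genes. HSP70-5, an inducible member of the HSP70 family, fell in atchz1ab (8.47 ± 1.31 CPM, against 14.0 ± 0.836 CPM in Col-0, -0.73 ± 0.14, edgeR adjusted p = 1.81e-05). It fell in hta9hta11 too (-0.52 ± 0.14, edgeR adjusted p = 0.0033). ROF2, a co-chaperone induced by heat, averaged 0.59 ± 0.238 CPM in arp6, against 10.9 ± 0.141 CPM in Col-0 (-4.22 ± 0.29, edgeR adjusted p = 2.78e-27).

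Markers of other tissues moved with some genotypes. The 13 genes of maturing seeds, a tissue that also makes small heat shock proteins, summed to 33.1 to 36.4 CPM per library in atchz1ab, 58.5 to 62.0 in hta9hta11 and 101 to 103 in atchz1ab hta9hta11. They summed to 19.1 to 20.4 CPM in arp6 and 9.24 to 10.5 in atchz1ab arp6, against 14.1 to 19.8 CPM in Col-0. Of the 9 tested, 3 were called higher in atchz1ab than in Col-0, 4 were in hta9hta11 and 7 were in atchz1ab hta9hta11, where 6.15%, 5.98% and 6.19% of all genes were. In arp6 3 were higher and 1 lower, and in atchz1ab arp6 2 were higher and 1 lower, beside 24.2% and 22.7% of all genes higher and 25.5% and 23.2% lower. The lower gene was the storage protein gene CRA1 in both lines, at -0.99 ± 0.15 in arp6 (edgeR adjusted p = 1.18e-08) and -2.09 ± 0.19 in atchz1ab arp6 (edgeR adjusted p = 3.48e-19). The seed regulator LEC1 was at 0 counts in Col-0 and in every mutant except atchz1ab arp6, with 1 count, and the storage protein gene CRU2 was at 0 except in atchz1ab hta9hta11. The 5 flower markers summed to 30.3 to 33.1 CPM in arp6 and 40.7 to 43.4 in atchz1ab arp6, against 3.12 to 5.35 CPM in Col-0, and 3 of the 5 were tested. Of those, SEP3 and AP1 were called higher in both lines, 2 of 3, beside 24.2% and 22.7% of all genes. The 4 green tissue markers were all called higher in arp6, where they summed to 36341 to 36870 CPM, and in atchz1ab arp6, with 32501 to 33764 CPM, against 26676 to 26885 CPM in Col-0. The part of seed, flower and green tissue transcripts in the family's levels was not tested.

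By their mean log2 CPM over the 18 libraries, the 8 tested genes were most like CYP94B3, with a Pearson r of 0.96, and APR2, with 0.943. Next were AT1G60730 (0.924), CYP76C2 (0.921), AT3G25510 (0.912), NSP5 (0.908), AT5G17380 (0.902) and AAE3 (0.897). The points share libraries and genotypes, so r is a description. CYP94B3, which degrades the jasmonate hormone, averaged 0.661 CPM in atchz1ab, 0.66 in hta9hta11, 1.85 in atchz1ab hta9hta11, 0.269 in arp6 and 0.175 in atchz1ab arp6, against 3.99 CPM in Col-0.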

How the data were processed

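Libraries were made from total RNA of seedlings with a stranded mRNA kit, per the labels' protocols. The authors deposited whole-number counts per gene with no normalization, and the submitters' processing notes name cutadapt, HISAT2, SAMtools, featureCounts and TAIR10. Their versions, the settings and the use of strand in counting are not stated. Reads had no molecular identifiers, so intervals cover counting error only. The floors leave out the counting error of the group they are set against.

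The 18 libraries entered 1 fit of edgeR 4.0.16 (R 4.3.3) with TMM scaling, filterByExpr (about 1.14 CPM in at least 3 libraries) and genotype as the factor. Log2 fold changes are given ± SE, each SE being the absolute change over the square root of the quasi-likelihood F. It is not a standard error of the estimate and can be too small at low counts. The p-values were adjusted over 18906 genes. The common biological coefficient of variation was 3.08%, and replicate pairs differed by more than sampling noise (chi-square per degree of freedom 1.43 to 1.66). The script was tested on simulated data. Alternatives were DESeq2 1.42.0, other scalings and filters, the compared groups alone, a replicate block and leaving out each library. Named genes are all 10 genes, the mutated genes, up to 4 called genes per list with the smallest adjusted p and the 8 most correlated genes. HSFA9, HSFB1, LEC1 and CRU2 were named outside that rule after their values were seen. Genes and lists were chosen with earlier results of these data known. Coordinates and sequences are RefSeq's for TAIR10.1, whose nuclear chromosomes are those of TAIR10.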

Additional observations from a re-analysis of the deposited data

Results flagged for a closer look

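The change with the AtChz1 mutations differed between hta9hta11 and Col-0 background for 5 genes, by a test of the difference itself in edgeR. On the log2 scale the difference was 6.36 for HSP17.6C, 5.02 for HSP17.6II, 4.52 for HSP17.4, 2.94 for HSP17.6A and 1.02 for HSP17.6B. HSP17.6C passed the filter on low counts through its Col-0 libraries alone, and HSP17.4 and HSP17.6II would have failed it without theirs. All 5 were higher in hta9hta11 background, and each was called in all 19 alternatives in which it was tested. Between arp6 and Col-0 background the difference was 3.97 for HSP17.6C, 3.96 for HSP17.4 and 3.14 for HSP17.6A, and HSP17.6C alone kept its call in every alternative in which it was tested. These tests share the Col-0 libraries with the comparisons against Col-0 and are not independent of them. The groups behind these values hold from 4 counts in 3 libraries upward, and a cause was not tested. Where a background held so few counts, a further fall as large as that in Col-0 background could hardly have been seen.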

How the results depend on the processing

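No direction of a called change turned under any alternative. With single libraries left out, 43 gene values lost their call, 7 gained one and 718 kept their side of the threshold. Under the other settings 8 lost it, 6 gained it and 724 kept it. Of the 8 genes, 4 were called in atchz1ab hta9hta11 against atchz1ab, but 2 with DESeq2 and 1 with the compared groups alone, where 4 passed the filter. With the compared groups alone, where 2 passed, 1 was called in atchz1ab arp6 against atchz1ab (3 in the full fit), 1 in arp6 against atchz1ab (3) and 1 in arp6 against hta9hta11 (4). Library totals, which set the median of all genes at -0.13 in arp6 against Col-0, called 5 in arp6 against atchz1ab. Leaving out single libraries gave 1 to 3 calls in atchz1ab hta9hta11 against atchz1ab and 2 to 4 in arp6 against hta9hta11. In hta9hta11 against Col-0 it gave 4 to 5, where the full fit gave 6. Replicate numbers did not pair the libraries: 0 of 36 correlations between same-numbered libraries passed 0.1 (-0.0175 to 0.0266), and 5 of 18 libraries correlated best with their own number. With a replicate block 5 genes were called in atchz1ab against Col-0, as without it, and counts over all genes moved by 0.98 to 1.01 times. Depth limits all of this, since most mutant libraries held fewer than 10 reads of HSP17.6C, HSP17.4, HSP17.6II, HSP17.6A, HSP21 and HSP22.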
